A study of Mus musculus with 22 samples.

Results

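Iron uptake, storage and export in adult mouse choroid plexus (ChP) were followed through 10 genes of 33984 genes with a count in the files. They were chosen by name as known parts of iron handling, with earlier results of these data known, so counts of members called are a description. All 10 were found by symbol. They are Trf, Tfrc, Steap3, Slc11a2, Hfe, Fth1, Ftl1, Slc40a1, Heph and Ireb2. The study asked what the transcription factor OTX2 does in adult ChP, and RNA was sequenced from 14 pools of tissue in 7 groups of 2 pools, A and B. In the conditional model, 3-month-old Otx2lox/lox mice (strain label S129) received the recombinant protein Cre-Tat or vehicle by injection into the lateral ventricles of both sides. The fourth ventricle itself was not injected. After 15 days, ChP of the lateral ventricles (LV) and of the fourth ventricle (4V) was taken apart, with 5 mice in each Cre-Tat pool and 4 in each vehicle pool. All of these mice carried the floxed alleles, and the groups differed by the injection, since Cre-Tat is a Cre recombinase that enters the cells it reaches and is bound to no promoter. In the constitutive model (strain label B6D2), 4V ChP came from 3-month-old wildtype mice, Ot2 (+/+) in the label, and from Otx2+/GFP mice, Otx2 (+/-) in the label, which are heterozygous in every tissue and from development on. Tissue of 5 wildtype and 4 Otx2+/GFP mice was pooled there, and the labels call both pools of a group biological replicates. A further group of the same run is labelled Otx2 (+/AA), and its allele and age are not described further in the sources used here. Both models were sequenced in separate runs, so model, strain and run cannot be told apart.

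Iron reaches a cell mainly bound to transferrin, which is taken up with the transferrin receptor, reduced by a STEAP enzyme in the endosome and moved to the cytosol by the transporter DMT1. Inside the cell it is used or stored in ferritin, and it leaves through ferroportin with the help of a ferroxidase. The iron regulatory proteins bind a small hairpin, the iron-responsive element (IRE), in several of these mRNAs when iron is scarce, which protects a bound transferrin receptor mRNA from decay and blocks translation of a bound ferritin or ferroportin mRNA. ChP epithelium is known as a main site of transferrin synthesis in the brain and as a barrier that iron crosses between blood and cerebrospinal fluid.

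Matches to a strict IRE pattern are shown because ferritin, ferroportin and the receptor are known to be controlled through IREs after transcription. RNA counts do not measure the translation of Fth1, Ftl1 or Slc40a1. Transcripts of GENCODE release M21 (GRCm38) were searched for a hairpin of 27 bases, made of a lower arm of 5 bases, an unpaired C, an upper arm of 5 bases, the loop CAGTGN in which N is not G, and the paired arms. All 5 upper pairs and at least 4 of 5 lower pairs had to form, with G to T allowed. Of 18504 genes with a 5′ untranslated region (UTR) in the transcript used, 5 held a match (0.02702%), and 3 of these are members. Of 18628 genes with a 3′ UTR, 6 held a match (0.03221%), among them Tfrc with 4 matches. The capitals mark the loop in each site, written 5′ to 3′ on the strand of the gene.
Fth1, 5′ UTR, chr19:9982733-9982759, plus strand: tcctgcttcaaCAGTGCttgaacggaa
Ftl1, 5′ UTR, chr7:45459780-45459806, minus strand: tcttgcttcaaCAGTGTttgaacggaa
Slc40a1, 5′ UTR, chr1:45925466-45925492, minus strand: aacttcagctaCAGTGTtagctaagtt
Tfrc, 3′ UTR, chr16:32631220-32631246, plus strand: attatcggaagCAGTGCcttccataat
Tfrc, 3′ UTR, chr16:32631599-32631625, plus strand: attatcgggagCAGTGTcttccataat
Tfrc, 3′ UTR, chr16:32631664-32631690, plus strand: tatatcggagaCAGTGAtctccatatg
Tfrc, 3′ UTR, chr16:32631711-32631737, plus strand: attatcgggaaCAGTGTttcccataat
No match was found in Trf, Steap3, Slc11a2, Hfe, Heph or Ireb2, which says only that this exact pattern is not in their UTRs. An IRE with an unpaired base in the upper arms, or of another shape, would be missed in any member. Outside the members, the 5′ UTR of Alas2, the first enzyme of haem synthesis in red cells, also held a match.

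Otx2 was the targeted gene, and its count over the whole transcript went against the knockdown labels. All levels below are in CPM, the reads of the gene's most counted transcript per 1000000 reads on the transcripts so chosen for all genes, after TMM scaling, which sets the typical gene of all pools equal. Otx2 (chr14:48657677-48673819) stood at 386 and 470 CPM in the vehicle LV pools and at 1236 and 1025 CPM in the pools labelled Cre-Tat. In 4V ChP it stood at 386 and 393 CPM with vehicle and at 1202 and 1222 CPM with Cre-Tat. The wildtype pools held 361 and 303 CPM, the Otx2+/GFP pools 1027 and 886 CPM, and the Otx2+/AA pools 339 and 357 CPM. Against the labels, Otx2 reads were more abundant after Cre-Tat in LV (log2 fold change 1.41 ± 0.18 SE, adjusted p = 0.000507), in 4V (1.64 ± 0.15, adjusted p = 1.15e-06) and in Otx2+/GFP (1.53 ± 0.14, adjusted p = 0.0011). The count covers the whole transcript and not the exon that is removed alone, so it does not measure the deletion itself. The study checked Otx2 expression by qPCR before it pooled the conditional samples. In both models it also counted reads on exon 2 of Otx2 apart, and reported fewer of them in Cre-Tat and in Otx2+/GFP ChP. Counts per transcript cannot resolve that exon. Whether labels were exchanged was not tested here. Groups are therefore called by their labels throughout, and each direction below is that of the labelled groups. Unless another tool is named, p-values are from the quasi-likelihood test of edgeR, adjusted after Benjamini and Hochberg across every gene that was tested, and a gene passed the test under 0.05. Over all transcripts the pools held 22750019 to 50088408 counts, of which 10552452 to 24820365 lay on the chosen transcripts. The 10 markers of ChP epithelium summed to 87125 to 232030 CPM, and the 8 markers of red cells to at most 9.22 CPM.

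**Figure D1:**
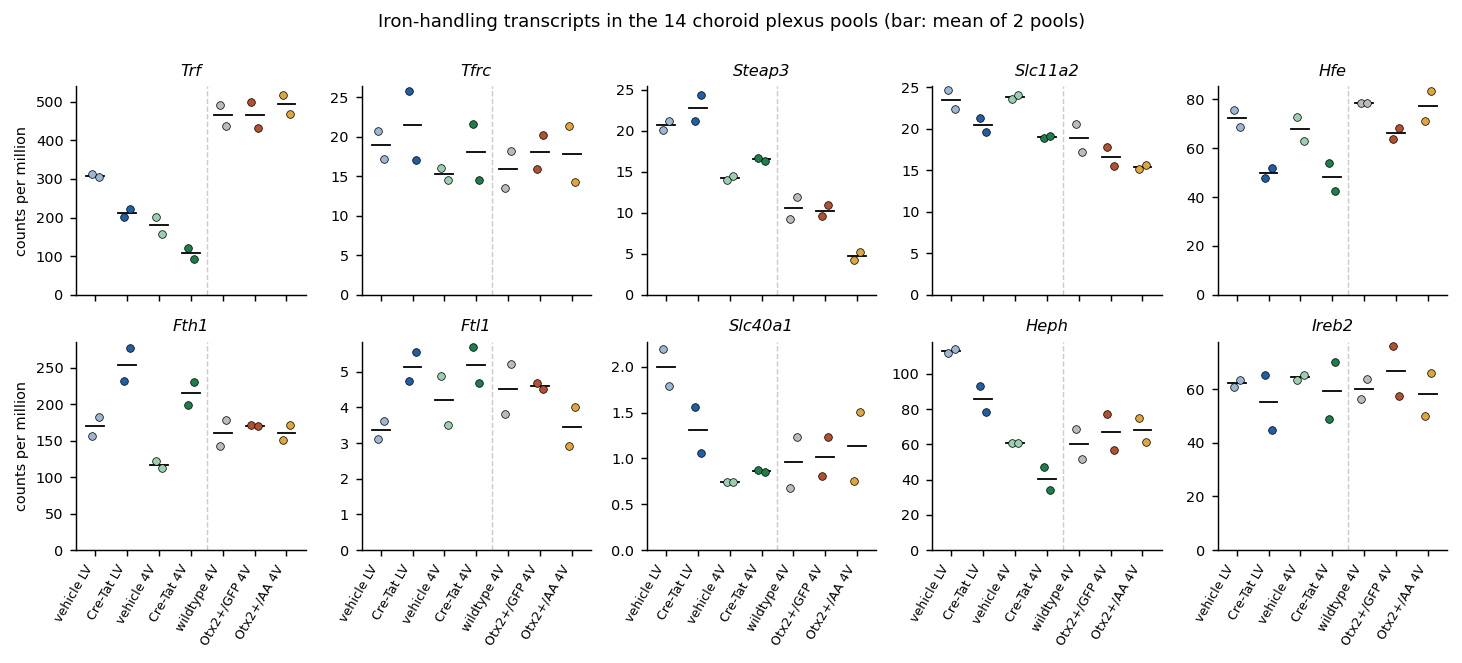
Level of each of the 10 genes, in CPM from 0, in the 14 pools, with points for single pools, a bar for the mean of 2 pools, and a dashed line between the sequencing runs of both models. Trf, Heph and Hfe lie lower and Fth1 higher in the Cre-Tat pools than in the vehicle pools of the same ventricle, and Steap3 is lowest in the 2 Otx2+/AA pools at 4.17 and 5.27 CPM.

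Levels can be compared between genes only per length, and per kilobase of transcript Fth1 and Trf had the highest counts of the 10 in every group. Of windows of 50 bases, 90.6% in Ftl1 and 79.8% in Trf also occur in other genes, so their places in this order are uncertain. In vehicle 4V ChP, Fth1 stood at 126 CPM per kilobase and Trf at 69.8, followed by Hfe at 19, Heph at 13.1 and Ireb2 at 11.2. Slc11a2 (5.41), Ftl1 (4.34), Tfrc (3.14) and Steap3 (2.76) came next, and Slc40a1 was last in every group, here at 0.219. The range of the 2 pools of Fth1 did not overlap that of Trf in any group of the conditional model, where Fth1 was first. In the wildtype, Otx2+/GFP and Otx2+/AA pools the ranges of Fth1 and Trf overlapped, so their order there was not larger than the spread. Among the lower members, neighbours in the order whose ranges overlapped were Steap3 with Tfrc and Tfrc with Ftl1 in vehicle LV, Slc11a2 with Steap3 and Steap3 with Tfrc in Cre-Tat LV, and none in vehicle 4V. In Cre-Tat 4V, Ireb2 overlapped with Hfe and with Heph, and Tfrc with Slc11a2 and with Steap3. Ftl1 overlapped with Slc11a2 in wildtype and in Otx2+/AA, where it also overlapped with Tfrc, and in Otx2+/GFP Heph overlapped with Ireb2 and Slc11a2 with Tfrc. Heph was above Hfe in LV ChP and below it in 4V ChP, in vehicle and Cre-Tat pools alike.

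**Figure D2:**
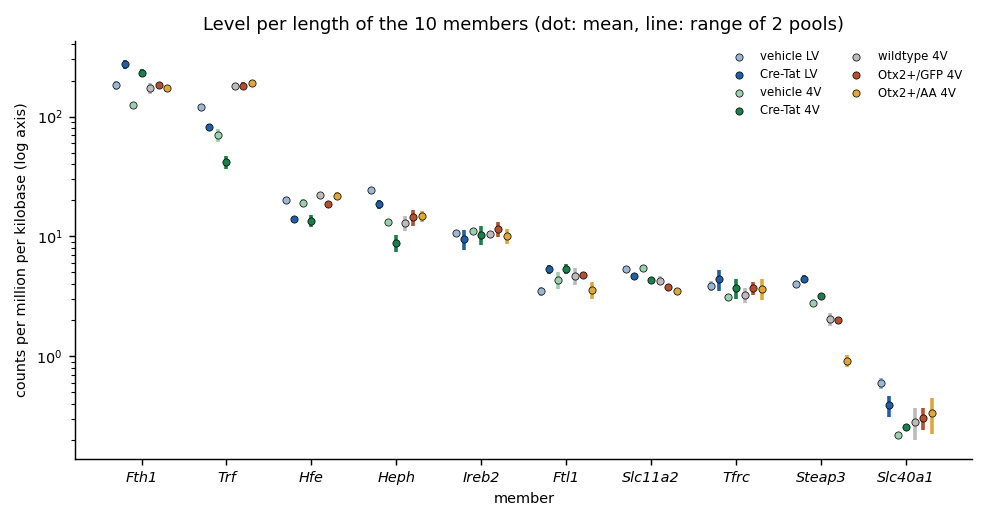
Level per length (CPM per kilobase of the transcript used, log axis) of the 10 genes in the 7 groups, with a dot for the mean and a line for the range of 2 pools. Fth1 and Trf lie above all other members in every group and Slc40a1 lies below them. The places of Ftl1 and Trf are uncertain, since most of their sequence also occurs in other genes.

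Some of these counts share sequence with other genes, which limits what they can tell. Of the windows of 50 bases, the read length, in the Ftl1 transcript, 90.6% also occur in transcripts of 17 other genes, so the Ftl1 count is uncertain. In Trf the share was 79.8%, all with Gm20425, in Fth1 6.59% and in Hfe 3.32%, and it was 0 in the other 6 members. The reads behind a value numbered 1700 to 11062 a pool for Trf and 1221 to 6044 for Fth1, and 8 to 46 for Slc40a1, whose values carry the largest counting error. The others lay between, down to 38 to 121 reads for Ftl1.

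The first comparison asked which transcripts differ in ChP 15 days after Cre-Tat. In 4V ChP, 4 of the 10 genes passed the test, against 10.7% of all 14550 genes tested. Fth1, the heavy subunit of ferritin with the ferroxidase site that stores iron, rose, against 5.7% of all genes that were higher. Trf, the iron carrier, Heph, the membrane ferroxidase that works with ferroportin, and Hfe, a partner of the transferrin receptor in iron sensing, fell, against 4.98% of all genes that were lower.

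Among the uptake genes, Trf (chr9:103204001-103230444) stood at 202 and 157 CPM in the vehicle 4V pools and at 121 and 93.1 CPM in the Cre-Tat pools. The pools did not overlap, and Trf fell by 0.74 on the log2 scale (SE 0.16, 95% interval -1.08 to -0.40, adjusted p = 0.00546). Without vehicle pool A the change was -0.53 with an adjusted p of 0.102. In LV ChP, Trf stood at 312 and 304 CPM with vehicle and at 201 and 222 CPM with Cre-Tat. These pools did not overlap either, but the difference (log2 fold change -0.54, SE 0.16) missed the threshold (adjusted p = 0.089), while DESeq2's Wald test gave 0.0101. All 8 transcripts of Trf passed the test in 4V, with log2 fold changes of -0.86 to -0.65. None did in LV, at -0.59 to -0.49. Transcripts of a gene share reads, so they are not separate measurements. Trf is also known as a product of oligodendrocytes, and the 10 oligodendrocyte markers summed to 53.6 to 58.2 CPM in the vehicle and 58.3 to 66.6 CPM in the Cre-Tat 4V pools, with 1 of 6 tested higher and none lower. The median log2 fold change of these 6 was -0.13, and 4 of them lay below 0. In LV the oligodendrocyte markers summed to 55.7 to 81.8 CPM with vehicle and 88.1 to 96 CPM with Cre-Tat, with 1 of 8 tested higher, 7 above 0 and a median of 0.65. The part of oligodendrocytes in the level of Trf was not tested.

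Tfrc (chr16:32608920-32632794), the transferrin receptor, showed no difference larger than its spread in either ventricle. It stood at 16.1 and 14.6 CPM with vehicle and 21.6 and 14.6 CPM with Cre-Tat in 4V, and at 20.8 and 17.2 CPM against 25.8 and 17.1 CPM in LV. In each ventricle, Cre-Tat pool A was the highest of the 4 pools and the groups overlapped. The log2 fold changes were 0.24 (95% interval -0.17 to 0.65) in 4V and 0.18 (-0.26 to 0.62) in LV.

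Steap3 (chr1:120190757-120272705), the ferrireductase of the endosome, stood at 14 and 14.5 CPM with vehicle and 16.7 and 16.3 CPM with Cre-Tat in 4V. The pools did not overlap, yet the log2 fold change of 0.22 (-0.13 to 0.57) did not pass the test (adjusted p = 0.502). In LV it stood at 20.1 and 21.2 CPM against 21.2 and 24.4 CPM. Slc11a2 (chr15:100387898-100425072), which encodes DMT1, was lower in both Cre-Tat pools of each ventricle without passing the test. It stood at 23.6 and 24.1 CPM against 18.9 and 19.1 CPM in 4V (log2 fold change -0.32, adjusted p = 0.226) and at 24.6 and 22.4 CPM against 21.3 and 19.6 CPM in LV (-0.20, adjusted p = 0.717).

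Hfe (chr13:23702034-23710854) stood at 72.8 and 62.9 CPM in the vehicle 4V pools and at 54 and 42.6 CPM in the Cre-Tat pools, which lay below them. It fell by 0.49 on the log2 scale (SE 0.15, 95% interval -0.80 to -0.17, adjusted p = 0.0432), close to the threshold. The call was lost in 6 of 11 alternative settings, with an adjusted p of 0.0758 by DESeq2, 0.172 with total counts as the scaling, 0.256 without Cre-Tat pool B and 0.376 without vehicle pool A. Of the 4 transcripts of Hfe, 2 passed the test over transcripts in 4V. The transcript used for the gene, Hfe-202, did not (adjusted p = 0.0682). In LV, Hfe stood at 75.9 and 68.7 CPM with vehicle and at 47.7 and 51.8 CPM with Cre-Tat. The LV pools did not overlap, and the log2 fold change of -0.54 (SE 0.16) missed the threshold (adjusted p = 0.0923).

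For storage, Fth1 (chr19:9980598-9985098) gave the difference with the lowest p of the 10 genes. It stood at 121 and 113 CPM in the vehicle 4V pools and at 198 and 231 CPM in the Cre-Tat pools. Every Cre-Tat pool lay above every vehicle pool, with a log2 fold change of 0.88 (SE 0.14, 95% interval 0.59 to 1.17, adjusted p = 0.000352), and the mean of the Cre-Tat pools was 1.83 times that of vehicle. The call held in all 11 alternative settings, with log2 fold changes of 0.77 to 1.02. In LV, Fth1 stood at 156 and 183 CPM with vehicle and at 231 and 277 CPM with Cre-Tat. The LV groups were apart too, and the log2 fold change of 0.59 (SE 0.17) did not pass the test (adjusted p = 0.0827), although DESeq2 gave 0.0232.

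Ftl1 (chr7:45457944-45459884), the light subunit of ferritin, had low and uncertain counts. It stood at 4.89 and 3.51 CPM with vehicle and 5.7 and 4.68 CPM with Cre-Tat in 4V, where the groups overlapped. In LV it stood at 3.1 and 3.63 CPM against 4.74 and 5.55 CPM, with a log2 fold change of 0.61 (95% interval 0.05 to 1.18, adjusted p = 0.295). Ftl1 did not pass the test in either ventricle.

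For export, Heph (chrX:96455359-96574485) stood at 60.5 and 60.6 CPM in the vehicle 4V pools and at 47 and 33.9 CPM in the Cre-Tat pools. It fell by 0.58 on the log2 scale (SE 0.16, 95% interval -0.90 to -0.25, adjusted p = 0.0217). The 2 Cre-Tat pools lay apart from each other, and without Cre-Tat pool B the change was -0.35 with an adjusted p of 0.193. It was also lost without vehicle pool A (adjusted p = 0.0636), with total counts (0.0796) and with the sum of all transcripts (0.0649). Of the 5 transcripts of Heph, 2 passed the test over transcripts in 4V. In LV, Heph stood at 112 and 114 CPM with vehicle and at 93 and 78.4 CPM with Cre-Tat. The log2 fold change of -0.40 there did not pass the test (adjusted p = 0.258). Slc40a1 (chr1:45908068-45926523), ferroportin, the only known iron exporter of mammals, stood at 0.741 and 0.739 CPM with vehicle and 0.869 and 0.856 CPM with Cre-Tat in 4V. In LV it stood at 2.2 and 1.79 CPM against 1.57 and 1.06 CPM. Its intervals were wide in both ventricles (-0.86 to 1.31 and -1.47 to 0.28 on the log2 scale), so a difference of that size was not detectable at this depth.

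Ireb2 (chr9:54863789-54912530), the iron regulatory protein IRP2, did not differ beyond its spread. It stood at 63.3 and 65.5 CPM with vehicle and 48.7 and 70.2 CPM with Cre-Tat in 4V, and at 60.9 and 63.5 CPM against 65.5 and 44.6 CPM in LV. In both ventricles the vehicle pools lay between the Cre-Tat pools. Its log2 fold changes of -0.11 and -0.17 turned to 0.03 and 0.01 with total counts as the scaling.

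In LV ChP none of the 10 genes passed the test, against 3.24% of all 15002 genes. At an unadjusted p under 0.05 there were 5 (Trf, Fth1, Hfe, Heph and Ftl1), and DESeq2 called 3 (Trf, Fth1 and Hfe). The effect of Cre-Tat in LV was not shown to differ from that in 4V for any of them, since the interaction of label and ventricle called 0 of 10, with none at an unadjusted p under 0.05 and none by DESeq2. That test called 0.00642% of all genes. For Fth1 the LV effect minus the 4V effect was -0.29 (95% interval -0.75 to 0.17) and for Trf 0.20 (-0.29 to 0.70) on the log2 scale. The median log2 fold change of the 10 genes was -0.18 in LV and 0.05 in 4V, beside medians of 0.00 and 0.01 over all genes tested.

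**Figure D3:**
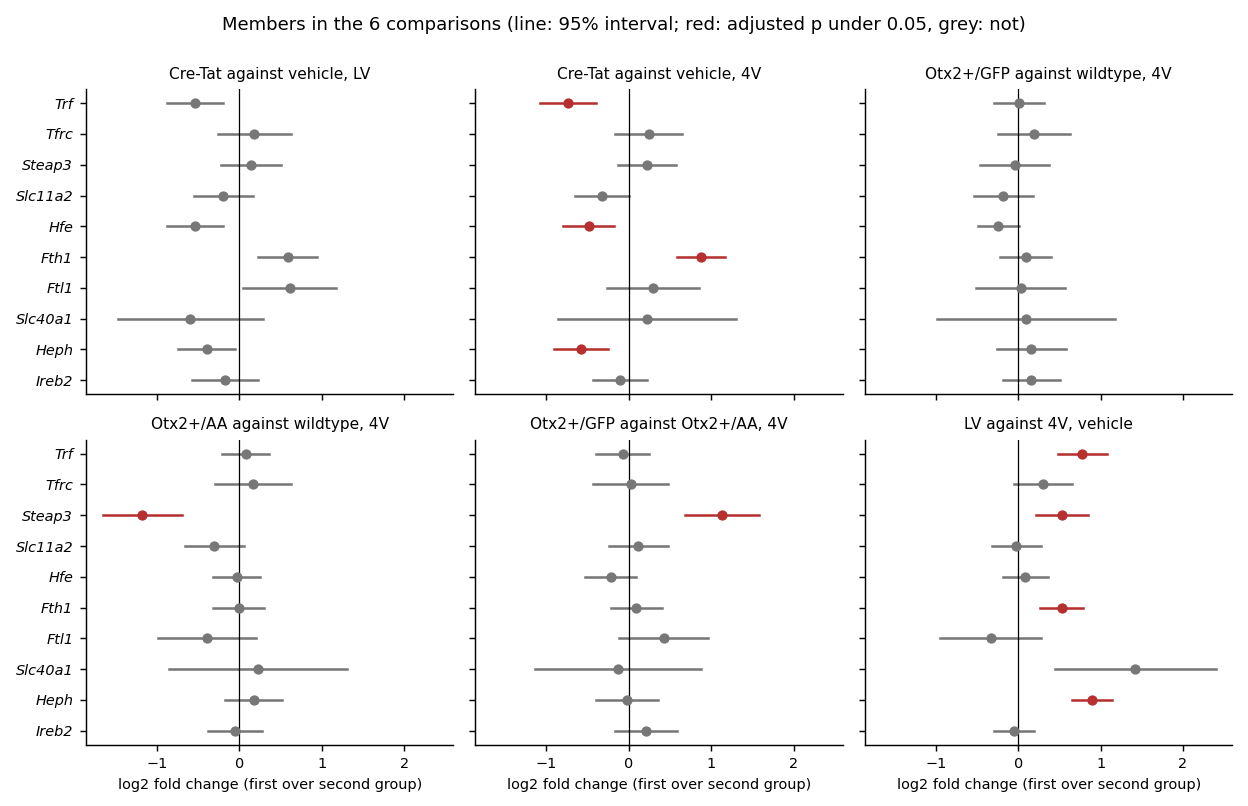
Log2 fold change of the 10 genes in the 6 comparisons of 2 groups, first group over second, with 95% intervals from edgeR and in red those with an adjusted p under 0.05. In 4V after Cre-Tat, Fth1 lies at 0.88 and Trf, Heph and Hfe lie at -0.74, -0.58 and -0.49, and all members lie between -0.24 and 0.19 in Otx2+/GFP against wildtype.

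Markers of cell types moved with the Cre-Tat label as well. The summed epithelial markers stood at 185654 to 219280 CPM in the vehicle and 87125 to 98334 CPM in the Cre-Tat 4V pools, with 10 of 10 lower. In LV they stood at 222716 to 232030 and 123650 to 164949 CPM, with 4 of 10 lower. This list includes Ttr and Aqp1, which the study reports as lower in both knockdown models. The study calls Ttr a known direct target of OTX2, and Ttr had the most reads of its top ChP genes. The sum is therefore not a measure of epithelial cell number alone. The 12 macrophage and microglia markers summed to 58.3 to 63.6 CPM with vehicle and 94.4 to 127.6 CPM with Cre-Tat in 4V, with 7 of 11 tested higher, and to 78.6 to 89.3 and 135 to 146 CPM in LV, with 4 of 12 higher. Macrophages are known as cells rich in ferritin and ferroportin, and epithelium as a source of Trf. The part of either cell type in the differences of Fth1, Trf, Heph and Hfe was not tested, and in bulk tissue fewer cells of a type and less RNA per cell cannot be told apart. In LV, Cre-Tat pool B held 9.22 CPM of the 8 red cell markers, against 0.12 to 2.02 CPM in the other pools of the conditional model. Cre-Tat pool A of LV held 61.8 CPM of 6 lymphocyte markers, against 0.369 to 19.7 CPM in the other pools of that model. Without that pool, Fth1 in LV passed the test (log2 fold change 0.73, adjusted p = 0.0191), and without Cre-Tat pool B of LV, Trf (-0.60, adjusted p = 0.0265) and Hfe (-0.59, adjusted p = 0.047) did.

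**Figure D4:**
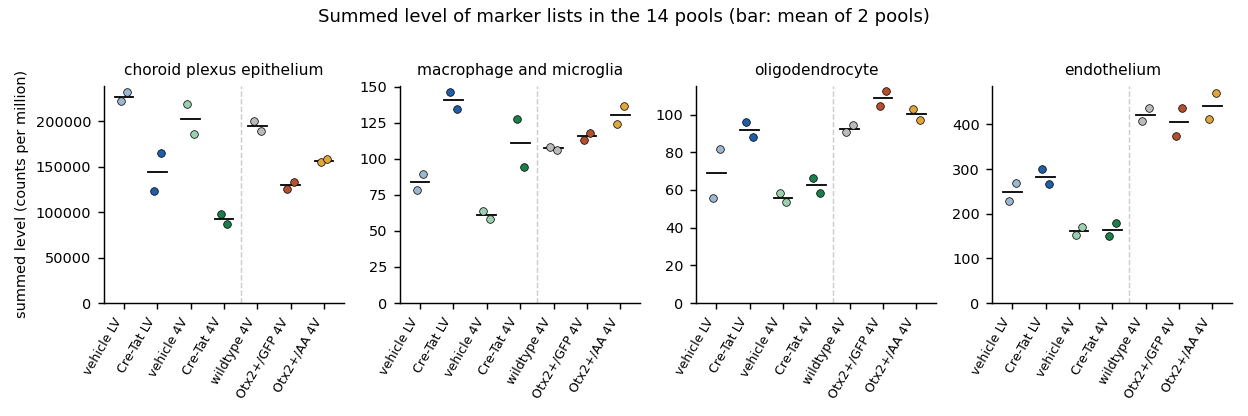
Summed level in CPM, from 0, of 4 marker lists in the 14 pools, with points for pools and a bar for the mean of 2. Epithelial markers are lower and macrophage and microglia markers higher in Cre-Tat than in vehicle pools of both ventricles, and the endothelial sum is higher in the run of the constitutive model.

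The wider iron pathway was read from 49 other genes of uptake, export, haem and iron-sulphur handling. In 4V ChP, 1 rose and 8 fell among 39 tested, beside 5.7% and 4.98% of all genes. Steap1 and Steap2, of the same family as Steap3, fell by 1.92 and 1.16 on the log2 scale (adjusted p = 1.18e-07 and 4.39e-05). Cp, the secreted ferroxidase ceruloplasmin, rose by 1.30 (adjusted p = 1.77e-05), and Bmp6, a ligand of the hepcidin pathway, fell by 0.71 (adjusted p = 0.00136). Steap2 stood at 610 and 626 CPM with vehicle and at 251 and 299 CPM with Cre-Tat, and Cp at 118 and 157 CPM against 332 and 343 CPM. Heph and Cp are both ferroxidases, and in 4V Heph was lower and Cp higher. The other 5 that fell were Slc46a1, Flvcr2, Scara5, Tmprss6 and Alas1, named here to complete the count.

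In LV ChP, none of 39 rose and 2 fell, Steap1 by 1.58 and Steap2 by 1.13 on the log2 scale (adjusted p = 0.000533 and 0.00154), against 1.03% of all genes that were lower. At an unadjusted p under 0.05 there were 12 of 39. Cp stood at 158 and 173 CPM with vehicle and 275 and 231 CPM with Cre-Tat in LV, which did not pass the test (log2 fold change 0.61, adjusted p = 0.061). The median log2 fold change of these genes was -0.11 in 4V and -0.04 in LV. They carry the same epithelial and macrophage shifts beside them as the 10 genes do.

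**Figure D5:**
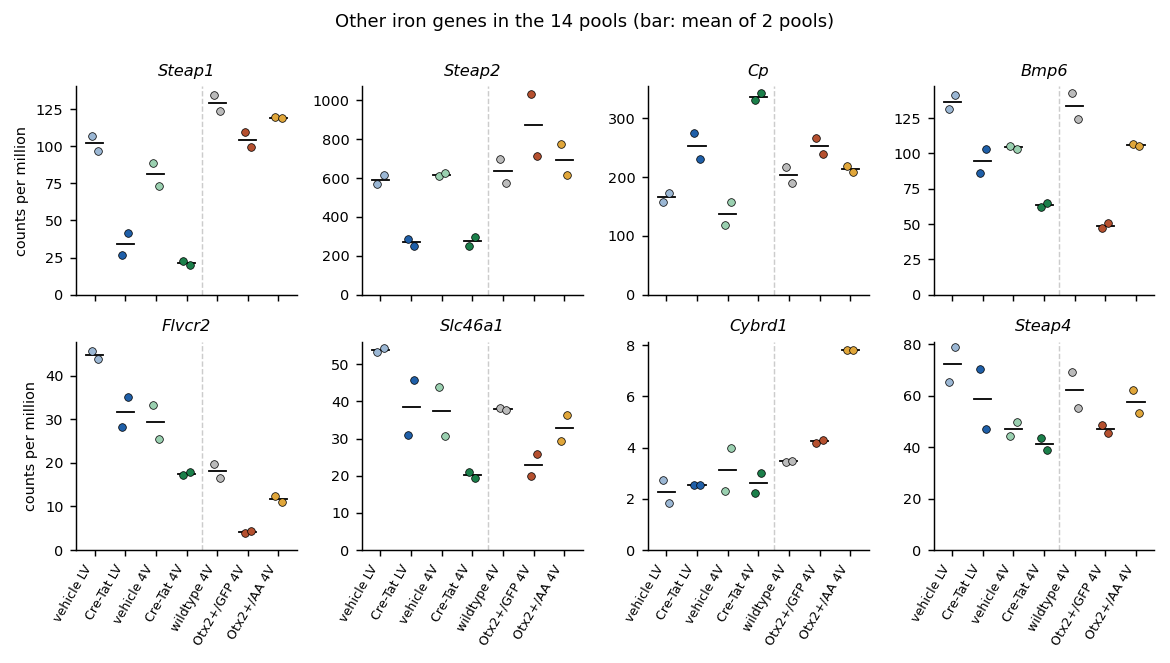
Level in CPM, from 0, of 8 other iron genes in the 14 pools, with points for pools and a bar for the mean of 2. Steap1 and Steap2 are lower and Cp higher in the Cre-Tat pools, while in the constitutive model Bmp6 and Flvcr2 are lowest in the Otx2+/GFP pools and Cybrd1 is highest in the Otx2+/AA pools.

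The next comparison asked what differs in 4V ChP of Otx2+/GFP mice. None of the 10 genes passed the test, against 3.53% of all 14573 genes, and none had an unadjusted p under 0.05 or was called by DESeq2. Fth1 stood at 143 and 179 CPM in the wildtype pools and at 171 and 170 CPM in the Otx2+/GFP pools. Trf stood at 493 and 437 CPM against 500 and 433 CPM, with a log2 fold change of 0.01 (95% interval -0.29 to 0.31). For both genes the groups overlapped, and the intervals leave room for changes of up to 0.40 for Fth1. Hfe was the only member whose pools did not overlap, at 78.4 and 78.5 CPM against 63.9 and 68.5 CPM (log2 fold change -0.24, adjusted p = 0.276).

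The remaining members overlapped between wildtype and Otx2+/GFP. Heph stood at 68.9 and 51.4 CPM against 77.2 and 56.6 CPM, Tfrc at 13.6 and 18.2 CPM against 15.9 and 20.3 CPM, and Ireb2 at 56.4 and 63.7 CPM against 76.1 and 57.5 CPM. Steap3 stood at 9.24 and 11.9 CPM against 9.64 and 10.9 CPM, and Slc11a2 at 20.6 and 17.2 CPM against 17.8 and 15.5 CPM. For each of these 5 genes the pools of both groups were interleaved, and none passed the test. Ftl1 stood at 3.81 and 5.23 CPM against 4.69 and 4.52 CPM and Slc40a1 at 0.679 and 1.24 CPM against 0.808 and 1.23 CPM.

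Among the other iron genes, none of 40 rose and 4 fell in Otx2+/GFP, against 1.75% of all genes that were lower. Bmp6 stood at 143 and 125 CPM in wildtype and 47.4 and 50.4 CPM in Otx2+/GFP pools and fell by 1.45 on the log2 scale (adjusted p = 0.000628). Flvcr2, a transporter first described for haem, stood at 19.6 and 16.5 CPM against 3.94 and 4.47 CPM and fell by 2.10 (adjusted p = 0.000745). Slc46a1, a folate transporter that can carry haem, fell by 0.73 (adjusted p = 0.0349), and Bmp2 fell as well (adjusted p = 0.0339). At an unadjusted p under 0.05 there were 14 of 40. Epithelial markers summed to 189422 to 200081 CPM in wildtype and 125491 to 133350 CPM in Otx2+/GFP pools, with 3 of 10 lower. The 6 fibroblast markers summed to 726 to 799 CPM in wildtype and 1004 to 1108 CPM in Otx2+/GFP pools, with 2 of 6 higher and a median log2 fold change of 0.58. The part of either cell type in the differences of Bmp6, Flvcr2, Slc46a1 and Bmp2 was not tested.

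Whether the label had another effect in the conditional than in the constitutive model was tested with an interaction in 4V ChP. It called 0 of the 10 genes, against 1.64% of all 15327 genes. At an unadjusted p under 0.05 there were 3 (Fth1, Trf and Heph), and DESeq2 called 2. The Cre-Tat effect minus the Otx2+/GFP effect was 0.78 for Fth1 (SE 0.19, adjusted p = 0.0701), -0.76 for Trf (SE 0.23, adjusted p = 0.153) and -0.75 for Heph (SE 0.27, adjusted p = 0.23). This outcome depended on the setting. Fth1 was called in all 4 alternatives run for this interaction, with an adjusted p of 0.00899 by DESeq2, 0.0436 with total counts, 0.00515 without the filter on low counts and 0.00547 with the pool letter as a replicate block. Trf was called in 3 of them, with an adjusted p of 0.038 by DESeq2, 0.00976 without the filter and 0.00169 with the block, and Heph in 2, with 0.0172 without the filter and 0.00718 with the block. Levels differed between the runs in their own right, with Trf at 157 to 202 CPM in vehicle and 437 to 493 CPM in wildtype 4V pools, which cannot be told apart from strain and run.

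In Otx2+/AA against wildtype 4V ChP, 1 of the 10 genes passed the test, Steap3, against 0.345% of all 14494 genes. Steap3 stood at 9.24 and 11.9 CPM in the wildtype pools and at 4.17 and 5.27 CPM in the Otx2+/AA pools. The groups did not overlap, and Steap3 fell by 1.18 on the log2 scale (SE 0.22, 95% interval -1.66 to -0.69, adjusted p = 0.046), which is near the threshold. It was lost without Otx2+/AA pool A (log2 fold change -1.01, adjusted p = 0.233), with total counts (adjusted p = 0.112) and with all groups of the run in 1 fit (adjusted p = 0.0801). Of its 5 transcripts, 4 passed the test over transcripts, with log2 fold changes of -1.25 to -1.07 over the 5.

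The same gene was the only member called between Otx2+/GFP and Otx2+/AA, against 2.7% of all 14578 genes. Steap3 stood at 9.64 and 10.9 CPM in the Otx2+/GFP pools, which were higher by 1.13 on the log2 scale (SE 0.21, 95% interval 0.68 to 1.58, adjusted p = 0.0117). This call held in all 11 alternative settings. Both comparisons use the same Otx2+/AA pools, so the second is not a separate measurement of them. Between wildtype and Otx2+/GFP, which do not share them, Steap3 differed by -0.04 (95% interval -0.46 to 0.38).

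The other members overlapped between Otx2+/AA and wildtype, except Slc11a2 at 15.2 and 15.6 CPM, below both wildtype pools (log2 fold change -0.30, adjusted p = 0.677). Trf stood at 519 and 469 CPM, Fth1 at 150 and 171 CPM, Heph at 75.2 and 61.2 CPM and Hfe at 71.4 and 83.3 CPM in the Otx2+/AA pools. Ireb2 stood at 50 and 66.2 CPM, Tfrc at 21.4 and 14.3 CPM, Ftl1 at 2.91 and 4.02 CPM and Slc40a1 at 0.75 and 1.51 CPM. Among 41 other iron genes tested, 1 rose, beside 0.172% of all genes, and none fell, with 7 at an unadjusted p under 0.05. That gene was Cybrd1, a ferrireductase of the plasma membrane, at 3.45 and 3.49 CPM in wildtype, 4.19 and 4.32 CPM in Otx2+/GFP and 7.83 and 7.82 CPM in Otx2+/AA pools (log2 fold change 1.16 against wildtype, adjusted p = 0.0453). Between Otx2+/GFP and Otx2+/AA none of 40 was higher and 3 were lower, Bmp6, Flvcr2 and Cybrd1, by 1.11, 1.48 and 0.87 on the log2 scale, beside 1.33% of all genes that were lower. The epithelial markers summed to 155298 to 158502 CPM in the Otx2+/AA pools, with none of 10 called against wildtype and 3 at an unadjusted p under 0.05.

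Finally, LV and 4V ChP were compared without Cre-Tat, in vehicle-injected mice. Only the lateral ventricles of these mice were injected, so ventricle and injection site cannot be told apart. Here 4 of the 10 genes passed the test, against 7.44% of all 14561 genes, and all 4 were higher in LV, against 3.46% of all genes. Heph gave the clearest difference, at 112 and 114 CPM in LV and 60.5 and 60.6 CPM in 4V (log2 fold change 0.90, SE 0.11, adjusted p = 0.000339), and it was called in all 11 alternative settings. Trf was higher in LV by 0.78 (SE 0.14, adjusted p = 0.00384), Fth1 by 0.53 (SE 0.12, adjusted p = 0.0192) and Steap3 by 0.53 (SE 0.15, adjusted p = 0.0437). The pools of LV and 4V did not overlap for any of these 4 genes.

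The calls of Fth1 and Steap3 between ventricles were close to the threshold. Both were lost with total counts, with all groups of the run in 1 fit and without vehicle LV pool B, vehicle 4V pool A or vehicle 4V pool B, and Steap3 also by DESeq2 (adjusted p = 0.158). The adjusted p over these settings reached 0.161 for Fth1 and 0.176 for Steap3, and that of Trf reached 0.0514 without vehicle 4V pool B. Slc40a1 was higher in both LV pools (2.2 and 1.79 CPM against 0.741 and 0.739 CPM), but with 8 reads in the lowest pool its log2 fold change of 1.42 (95% interval 0.44 to 2.40) did not pass the test (adjusted p = 0.0764). It was called without the filter on low counts (adjusted p = 0.0307) and with the pool letter as a replicate block (adjusted p = 0.0459). LV and 4V were both dissected from the injected mice, so the pools of the ventricles may share animals, which the test without a block treats as independent.

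Tfrc stood at 20.8 and 17.2 CPM in LV against 16.1 and 14.6 CPM in 4V without passing the test (adjusted p = 0.289). Hfe, Ireb2 and Slc11a2 lay within 0.09 of 0 on the log2 scale between ventricles, where Hfe turned to -0.10 with total counts, and Ftl1 at -0.33 (95% interval -0.95 to 0.28). Among the other iron genes, 2 of 39 were higher in LV, Steap4 and Flvcr2, by 0.62 and 0.60 on the log2 scale (adjusted p = 0.0105 and 0.0259), beside 3.46% of all genes, and 1 was lower, beside 3.98%. The lower one was Tmprss6, a protease that restrains the hepcidin pathway, at 3.26 and 2.86 CPM in 4V and 0.287 and 0 CPM in LV (adjusted p = 0.00198). Endothelial markers moved with the ventricle, summing to 228 to 269 CPM in LV and 152 to 171 CPM in 4V, with 3 of 8 higher, while none of the 10 epithelial markers was called. Macrophage and microglia markers summed to 78.6 to 89.3 CPM in LV and 58.3 to 63.6 CPM in 4V, with 1 of 11 tested higher. The sums of mural markers were 237 to 257 and 204 to 225 CPM, with none of 6 called. Of 6 oligodendrocyte and 6 fibroblast markers tested, 1 each was higher, and of 4 astrocyte markers 1 was higher and 1 lower. The part of blood vessels or of any other cell type in the higher LV levels of Heph, Trf, Fth1 and Steap3 was not tested.

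Promoters were searched for the core letters of an OTX2 site, TAATCC or its reverse complement GGATTA, in windows of 300 bases from RefSeq (GRCm38.p6). Windows were given for 6 of the 10 genes, Fth1, Ftl1, Hfe, Ireb2, Steap3 and Tfrc. None of their 11 windows held these letters, beside 7.062% of 32851 windows of all genes, which says nothing of binding elsewhere.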

How the data were processed

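Strand-specific RNA-seq was made from 14 ChP pools in 7 groups. The authors deposited raw read counts per Ensembl transcript, without normalization, in 22 files. The submitters' processing notes name Bowtie 0.12.9, HTSeq 0.5.3, DESeq 1.8.3 and mm10, while the annotation and the strand used for counting are not given in the sources used here. The labels describe depletion of ribosomal RNA, and the study's methods PolyA+ selection. Of 16 files from Cre-Tat and vehicle mice, 14 are named for another library than the sample they are attached to. Files were joined by library number, since the 2 runs of a library then differed by 1.00 to 1.03 times the degrees of freedom of a chi-square test, against 13.2 to 20.5 as attached, and both runs were summed. The chi-square shows only which runs are of the same library. The group of a library was read from the library number in the sample descriptions, which decides which pools are called Cre-Tat and vehicle.

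Of 95533 transcripts, 82807 matched GENCODE M21, with 89.5% of the counts. A read may be counted on several transcripts, so a gene's level is that of its most counted transcript, chosen on the sum of all files. The counts were tested per comparison with edgeR 4.0.16 in R 4.3.3 (filterByExpr, TMM, glmQLFTest), and DESeq2 1.42.0 gave alternatives. Intervals are 95%. With 2 pools a group and mice pooled, the spread between pools limits the precision, and p-values measure only that spread. Total counts of 22750019 to 50088408 a pool set the counting error alone. All members were named, and of 49 other iron genes the up to 4 called genes with the lowest adjusted p in each comparison. The members and lists were chosen with earlier results of these data known. The other marker lists (mural, fibroblast, neuron, astrocyte, lymphocyte, erythroid) gave 0 to 2 calls in each comparison.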

Additional observations from a re-analysis of the deposited data

Results flagged for a closer look

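Among 39 other iron genes tested, 5 had an effect that differed between the conditional and the constitutive model in 4V ChP by the interaction test of edgeR, beside 1.64% of all 15327 genes, given as the Cre-Tat effect minus the Otx2+/GFP effect on the log2 scale. For Steap1 the difference was -1.63 (SE 0.19, adjusted p = 0.00113), with 89 and 73.3 CPM in vehicle, 22.6 and 20.3 in Cre-Tat, 135 and 124 in wildtype and 109 and 99.5 in Otx2+/GFP pools. Steap2 gave -1.64 (SE 0.25, adjusted p = 0.00521), since it was lower in both Cre-Tat pools than in vehicle and stood at 1032 and 712 CPM in Otx2+/GFP against 696 and 573 CPM in wildtype pools. The difference for Cp was 0.97 (SE 0.21, adjusted p = 0.0322). Flvcr2 and Bmp6 were lower in the labelled knockdown of both models and more so in Otx2+/GFP, with differences of 1.34 (SE 0.25, adjusted p = 0.0159) and 0.72 (SE 0.17, adjusted p = 0.0481). Model, strain and sequencing run cannot be told apart in these differences. No member passed this test in the main edgeR fit, while 1 to 3 did in each of the alternatives run, other edgeR fits among them. Groups of 2 pools were not examined for single outlying samples.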

How the results depend on the processing

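Of the 10 calls of members between 2 groups, Fth1 after Cre-Tat in 4V, Steap3 between Otx2+/GFP and Otx2+/AA and Heph between ventricles were kept in all 11 alternatives tried for each, and the other 7 were lost in 1 to 6 of them, with no call reversed. Over all members and comparisons, 573 values kept their direction and side of the threshold, 26 were lost, 12 were gained and 49 uncalled values changed sign. The causes of these changes were not tested.

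Scaling by total counts instead moved the median of all genes by 0.17 in LV, 0.14 in 4V, 0.12 in Otx2+/AA against wildtype and -0.19 between ventricles on the log2 scale, and each member moved with it. Genes called higher and lower went from 331 and 155 to 396 and 48 in LV, from 829 and 725 to 1316 and 426 in 4V, from 25 and 25 to 28 and 10 in Otx2+/AA against wildtype, from 199 and 194 to 183 and 294 between Otx2+/GFP and Otx2+/AA, and from 504 and 579 to 252 and 1222 between ventricles. The members called became 1 in LV, 2 in 4V, 0 in Otx2+/AA against wildtype, 2 between ventricles and 1 in the interaction with the model. Uncalled values that turned were Ireb2 in LV (0.0055) and 4V (0.031), Fth1 (0.11), Hfe (0.090) and Ireb2 (0.064) in Otx2+/AA against wildtype, Tfrc between Otx2+/GFP and Otx2+/AA (-0.042) and Hfe between ventricles (-0.10).

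With DESeq2 3 members were called in LV and 2 in the interaction with the model, and the genes called were 115 in Otx2+/AA against wildtype and 6 in the interaction with the ventricle. Without the filter on low counts the genes called were 874 in LV, 390 in Otx2+/AA against wildtype, 1840 between ventricles, 31 in the interaction with the ventricle and 627 in that with the model. The members called were then 2 in LV and 3 in the interaction with the model, and Fth1 turned to 0.00095 in Otx2+/AA against wildtype. With the sum of all transcripts 2 members were called in 4V, the genes called were 22 in Otx2+/AA against wildtype and 248 between Otx2+/GFP and Otx2+/AA, and Hfe turned to 0.090 in the former. With all groups of a run in 1 fit the members called were 1 in LV, 0 in Otx2+/AA against wildtype and 2 between ventricles, and the genes called were 18 and 717 in the last 2 of these. With the files of the conditional model taken as attached, 6709 genes and 8 members were called in LV, 8742 and 8 in 4V, and 4718 genes between ventricles. As attached, pools A and B of a group are repeat runs of the same libraries and not separate pools of mice. Each group then also mixes Cre-Tat and vehicle libraries by number. These counts therefore test neither Cre-Tat nor the ventricle.

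The pool letter as a replicate block gave 3114 genes in 4V, 2539 in Otx2+/GFP, 549 in Otx2+/AA against wildtype, 2288 between ventricles, 0 in the interaction with the ventricle and 1048 genes with 3 members in that with the model. No source says that a letter pairs animals, and over 15893 genes the deviations of pools with the same letter correlated at -0.155 to 0.376. Among members between 2 groups, the block changed 1 call, Slc40a1 between ventricles (adjusted p = 0.0459).

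Leaving out 1 pool, where the lone pool was assumed to vary like the other group, gave 321 to 737 genes in LV, 905 to 1665 in 4V, 402 to 881 in Otx2+/GFP, 35 to 382 in Otx2+/AA against wildtype, 403 to 790 between Otx2+/GFP and Otx2+/AA and 400 to 1968 between ventricles. Members called ranged from 0 to 2 in LV, 1 to 4 in 4V, 0 to 1 in Otx2+/AA against wildtype and 1 to 4 between ventricles. Uncalled log2 fold changes that changed sign without 1 pool were, in LV, Tfrc (-0.13 to 0.45) and Ireb2 (-0.46 to 0.088). Those in 4V were Tfrc (-0.085 to 0.50) and Ireb2 (-0.39 to 0.12). Those in Otx2+/GFP were Trf (-0.11 to 0.11), Tfrc (-0.0068 to 0.41), Slc40a1 (-0.28 to 0.58), Fth1 (-0.065 to 0.25), Ftl1 (-0.18 to 0.27), Heph (-0.091 to 0.38), Steap3 (-0.22 to 0.15) and Ireb2 (-0.065 to 0.35). Those in Otx2+/AA against wildtype were Trf (-0.0055 to 0.16), Tfrc (-0.15 to 0.43), Slc40a1 (-0.35 to 0.71), Fth1 (-0.16 to 0.16), Heph (-0.021 to 0.40), Hfe (-0.14 to 0.077) and Ireb2 (-0.26 to 0.13). Those in Otx2+/GFP against Otx2+/AA were Trf (-0.19 to 0.028), Tfrc (-0.24 to 0.34), Slc40a1 (-0.56 to 0.44), Heph (-0.27 to 0.19) and Ireb2 (-0.0092 to 0.42). Those in LV against 4V were Slc11a2 (-0.11 to 0.065) and Hfe (-0.015 to 0.21).

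Depth limits Slc40a1, with 8 to 46 reads a pool, and shared sequence limits Ftl1 and also Trf, with 79.8% of its windows in common with Gm20425.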
